A study of Luscinia megarhynchos and Luscinia luscinia with 4 samples.

Results

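The germline-restricted chromosome (GRC) of songbirds is kept in the cells of the germline and eliminated from somatic cells during development. It is built largely from copies of genes of the A chromosomes, the regular chromosomes of the karyotype, and it is usually unpaired in male germ cells and paired in female germ cells. RNA of a GRC gene is therefore looked for in the germ cells of an ovary or a testis.

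In the common nightingale, *Luscinia megarhynchos*, RNA from GRC genes was compared between the ovary of 1 female and the testis of 1 male, both with no treatment or genotype named in the labels. The question was which genes of this chromosome had more RNA in one gonad than in the other. Every gene with an FPKM (reads per kilobase of coding sequence, scaled to the reads of the library and, in this table, multiplied by the proportion of the gene found on the GRC) above 0 in either library was taken, which gave 267 of the 799 genes of the table. The other 532 genes were at 0 in both. Libraries were made from poly(A) RNA and sequenced as 150 bp single-end reads. With 1 library per gonad, gonad, sex and bird cannot be told apart, no test across birds was possible, and every interval below is an exact Clopper-Pearson 95% interval of the read numbers that covers counting error only. The ages and breeding stages of the birds were not given in the labels. The study describes them as wild adults, sampled in the breeding season in early May. The share of GRC-bearing germ cells in each gonad is also not known, so that more such cells and more RNA per cell cannot be told apart. The female is the one whose somatic genome served as reference. Whether reads of A-chromosomal copies were counted on the GRC was not tested.

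Of the 267 genes, 116 belong to the 192 genes that the study lists as found on the nightingale GRCs, and their reads could be recovered as whole numbers. The other 151 genes lie outside that list, and only the lowest whole-number ratio of their reads could be found. The gonad could not be checked against its usual marker genes, because none of the 23 markers looked for (such as ZP3, GDF9, DDX4 and PRM1) is among the genes of the table. Recovered from the values, the ovary library had been scaled to 57644189 reads and the testis library to 35404629 reads. Reads on the listed genes numbered 50088 in the ovary and 9009 in the testis, which are 868.9 and 254.5 RPM (reads scaled to 1000000 reads of the library).

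No gene sequence was at hand, so the genes are shown by the PCR primers that the study designed on the GRC sequence of CPEB1 and IGF2, both among the genes with most RNA in the ovary and without a testis read. They are printed 5′ to 3′, as the study gives them, but put in lower case here, and no base is marked.
CPEB1 forward: agtacgagaaccccatctattct
CPEB1 reverse: caaaatgacgaaaagcatcaatcaatt
IGF2 forward: agtaaccgtcggatcaactcg
IGF2 reverse: gtagcggtgagcctgtg

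More genes were above 0 in a single gonad than in both over all 267 genes, but not among the 116 listed genes. Of the 267 genes, 84 (31.5%) were above 0 in the ovary alone, 69 (25.8%) in the testis alone and 114 (42.7%) in both. Among the 116 listed genes, 30 were above 0 in the ovary alone, 18 in the testis alone and 68 in both. Genes with a symbol and genes that carry only a LOC number (predicted genes of the flycatcher annotation without an assigned symbol) divided differently. Of the 50 listed genes with a symbol, 22 were above 0 in the ovary alone and 3 in the testis alone (ELL2, GPC5 and ZNF565, each with 5 reads or fewer). Of the 66 listed LOC genes, 8 were above 0 in the ovary alone and 15 in the testis alone. A gene above 0 was often close to 0. In the ovary 13 listed genes had 1 read and in the testis 11 had 1 read, whereas 57 in the ovary and 44 in the testis had 10 or more. At the depth of the testis library, the ovary would be expected to show 91.4 of its 98 listed genes.

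**Figure D1:**
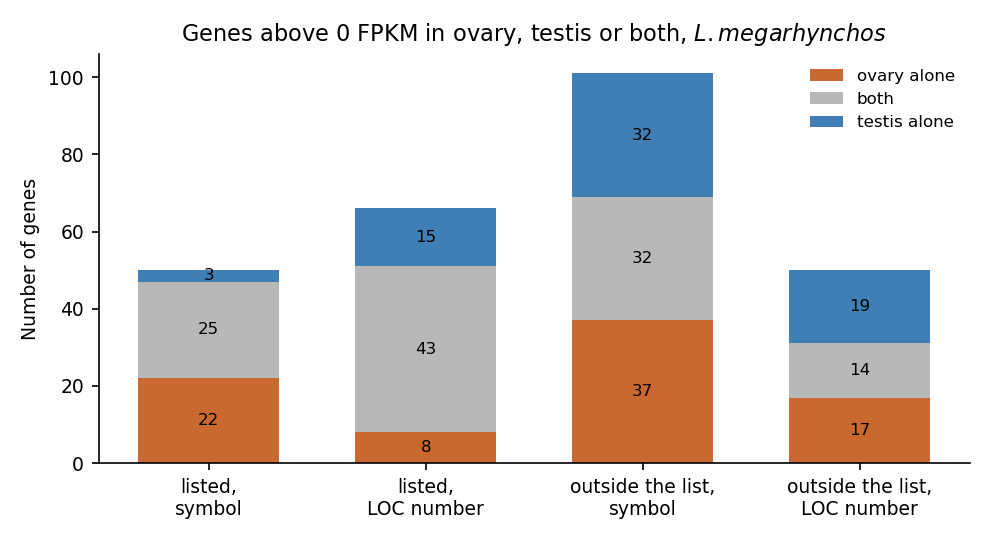
Number of *L. megarhynchos* genes (y axis) with an FPKM above 0 in the ovary alone, in both gonads or in the testis alone, for listed genes and genes outside the list, each split into genes with a symbol and genes with a LOC number. Listed genes with a symbol were above 0 in the ovary alone in 22 cases and in the testis alone in 3, against 8 and 15 for listed LOC genes.

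The difference between the gonads was then taken gene by gene on RPM, for the 82 listed genes with at least 10 reads over both libraries. A gene was called at a 4-fold difference, with a count of 0 taken as 3 reads in its library. A fold against 0 is therefore given as "at least" under that assumed count. It is not the lower limit of the counting interval, which was lower. That limit was 1047 against 1288 for IGF2 and 3.03 against 4.09 for LOC101817906. Coding length and the share of the gene found on the GRC enter both libraries alike and drop out of the ratio. On this measure 29 genes (35.4%) were at least 4-fold higher in the ovary, 31 (37.8%) were at least 4-fold higher in the testis, and 22 fell between. The interval of the ratio lay above 1 for 37 genes, below 1 for 34 and held 1 for 11. Most called genes were nearly missing from the other gonad: 26 of the 29 higher in the ovary had 6 or fewer testis reads, the others being HAUS6, POLR2B and LOC107603367, and 24 of the 31 higher in the testis had 6 or fewer ovary reads. At least 100-fold differences were found for 10 genes in favour of the ovary, of which 1 is a LOC gene, and for 9 in favour of the testis, all of them LOC genes. Of the genes nearest the 4-fold limit, LOC101817906 (20 reads in the ovary and none in the testis, at least 4.09-fold higher) and BTF3 (16 and 40 reads, 4.07-fold lower) lay just inside it, while LOC107603709 (42 and 7 reads, 3.69-fold higher) and POLD2 (589 and 1379 reads, 3.81-fold lower) lay just outside.

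Among listed genes with at least 10 reads, genes with a symbol and LOC genes leaned to opposite gonads. Of the 35 genes with a symbol, 21 were at least 4-fold higher in the ovary, 4 were at least 4-fold higher in the testis and 10 were neither, with a median log2 ratio of 3.69. Of the 47 LOC genes, 8 were at least 4-fold higher in the ovary, 27 were at least 4-fold higher in the testis and 12 were neither, with a median log2 ratio of -2.58. Over all 82 genes the median was 0.78. Genes with a symbol held 81.8% of the reads on listed genes in the ovary and 35.8% in the testis, and LOC genes held 18.2% and 64.2%. Single genes carried much of these shares. With LOC101808355 left out of the LOC genes and of the total, LOC genes held 3.77% of the ovary reads and 64.2% of the testis reads. With POLD2 and CHD5 left out of the genes with a symbol but kept in the total, these genes held 80.0% of the ovary reads on listed genes. In the testis they held 8.68%.

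**Figure D2:**
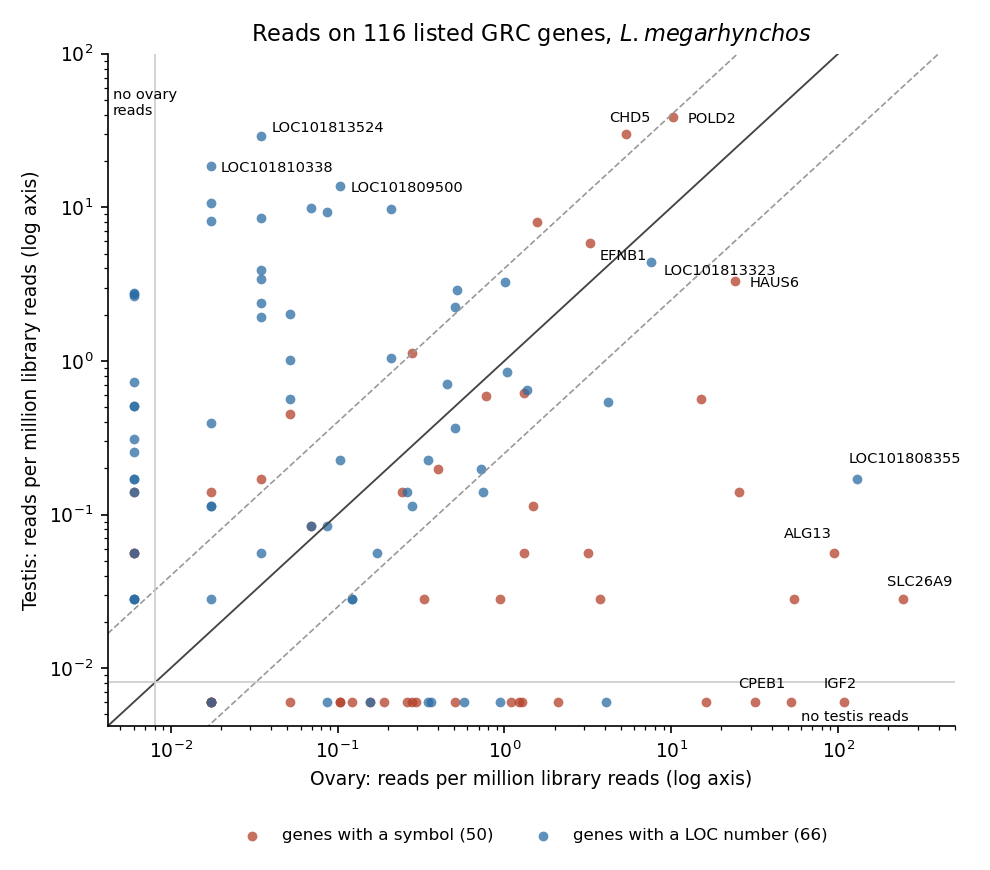
RPM of the 116 listed genes in the ovary (x axis) and in the testis (y axis), both on log axes, with genes without reads drawn in the margins beyond the grey lines. The solid line marks equal levels and the dashed lines a 4-fold difference. SLC26A9 and LOC101808355 lie far to the right at 246 and 130 RPM in the ovary, and LOC101813524 and LOC101810338 lie at the upper left at 29.1 and 18.6 RPM in the testis.

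Scaling matters for genes with a small difference, because the ovary had 3.41 times as many RPM on listed genes as the testis. Scaled to the reads on listed genes in place of all reads of the library, every log2 ratio would be lower by 1.77. On that scale 18 genes were at least 4-fold higher in the ovary, all of them among the 29, and 36 were at least 4-fold higher in the testis, among them all 31. Their median log2 ratio over the 82 genes was then -0.99. The genes that lost the call for the ovary included HAUS6, LARP4 (1 of its 2 identifiers), GNAI3, SLC39A10 and 6 LOC genes, and those that gained it for the testis were POLD2, EFNB1 and 3 LOC genes. The medians were 1.92 for genes with a symbol and -4.35 for LOC genes, a shift that is the same for both by construction. Scaled instead by the median ratio of the 20 genes with 10 or more reads in each library, the balance turned the other way, with 35 genes at least 4-fold higher in the ovary, 24 in the testis and a median log2 ratio of 1.53.

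The genes with a symbol are described by lists of related function, whose counts are descriptions only. They stand beside the 60% called for the ovary and 11.4% for the testis over all 35 such genes. Only genes of the study's list with at least 10 reads are counted. The insulin-like growth factor genes were read in the ovary and had no testis read. IGF2 encodes a secreted growth factor of the insulin family, and IGF1R encodes a receptor through which insulin-like growth factors act. IGF2 had 6291 reads in the ovary and none in the testis, and its FPKM of 134.9 was the highest of all genes in the ovary. It was at least 1288-fold higher in the ovary. IGF1R had 925 reads in the ovary and none in the testis, at least 189-fold higher in the ovary. Both the ligand and its receptor were thus above 0 in 1 of the 2 gonads.

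Other members of the growth factor and signalling list were lower in reads. SEMA7A, a member outside the study's list, was lower in the ovary and is described further below. GNAI3, an alpha subunit of inhibitory G proteins, had 29 reads in the ovary and none in the testis (at least 5.94-fold higher). PTPN2 and EFNB1 did not reach the 4-fold limit. PTPN2, a tyrosine phosphatase, had 14 reads in the ovary and 5 in the testis, and its interval of 0.585 to 6.10 held 1. EFNB1, which encodes ephrin-B1, a membrane ligand of Eph receptors, had 187 and 207 reads and was 1.80-fold lower in the ovary (1.47 to 2.21). PRKCD and GNAT2, with 6 ovary reads each and none in the testis, were too shallow to compare.

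Of 5 identifiers for RNA-binding proteins with at least 10 reads, 3 were called for the ovary and none for the testis, the same share as over all genes with a symbol. The 3 belong to CPEB1 and LARP4, and 2 of them were called when scaled to the reads on listed genes. CPEB1 binds a short element of maternal mRNAs and controls their polyadenylation and translation, as known from oocytes of frogs and mice. CPEB1 had 1824 reads in the ovary and none in the testis, at least 373-fold higher in the ovary. LARP4, which binds poly(A) and is known to stabilise mRNA, was annotated with 2 identifiers, which may share sequence. One had 215 reads in the ovary and 1 in the testis, 132-fold higher (23.4 to 5240), and the other had 86 and 4 reads, 13.2-fold higher (4.97 to 49.6). ELAVL4, an RNA-binding protein best known from neurons, was above 0 in the ovary alone in each of 3 identifiers, which had 17, 11 and 9 reads. With at most 17 reads, the highest of them was at least 3.48-fold higher in the ovary, under the limit for a call.

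All 3 genes of the study's list for meiosis and the spindle with at least 10 reads were at least 4-fold higher in the ovary. SYCP1 encodes the transverse filament and SYCE3 a central element protein of the synaptonemal complex, which holds homologous chromosomes together in meiotic prophase. SYCE3 had 182 reads in the ovary and 2 in the testis, 55.9-fold higher (15.3 to 465.0). SYCP1 had 54 reads in the ovary and 1 in the testis, 33.2-fold higher (5.71 to 1334). Both were low in the testis, although spermatocytes also build the complex from A-chromosomal genes. HAUS6, a subunit of the augmin complex that nucleates microtubules within the spindle, was read well in both gonads. It had 1391 reads in the ovary and 117 in the testis, 7.30-fold higher in the ovary (6.04 to 8.90). A second HAUS6 identifier outside the list had a lowest whole-number pair of 1364 to 91 reads, 9.21-fold higher in the ovary.

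Genes for protein modification and turnover included some of the largest differences, with 4 of 5 called for the ovary. FBXO11 is a substrate adaptor of a ubiquitin ligase. It had 3123 reads in the ovary and 1 in the testis, 1918-fold higher (344 to 75786). ALG13, a subunit of the enzyme that adds the second sugar of N-linked glycans, had 5431 reads in the ovary and 2 in the testis, 1668-fold higher (461.5 to 13775). PIAS1, a SUMO ligase, had 1472 and 5 reads, 181-fold higher (77.3 to 557.7). PSMD4, a ubiquitin receptor of the proteasome, had 120 reads in the ovary and none in the testis, at least 24.6-fold higher. These were the genes with few or no testis reads. RABGGTA, a subunit of the enzyme that attaches lipids to Rab proteins, had 23 and 7 reads, and its interval of 0.838 to 5.57 held 1.

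Of the transport and membrane genes, the 3 in the study's list with at least 10 reads were all called for the ovary. PCDH7, a member outside the study's list, had a lowest pair of 1 to 94 reads and was 153-fold lower in the ovary. SLC26A9, an anion transporter, had the most reads of any listed gene in the ovary. It had 14192 reads in the ovary, 28.3% of all reads on listed genes there, and 1 read in the testis, 8717-fold higher with an interval of 1564 to 344312. NECTIN3, a cell adhesion protein, had 74 reads in the ovary and none in the testis, at least 15.2-fold higher. SLC39A10, a zinc importer, had 63 ovary reads and no testis read, at least 12.9-fold higher. MFSD2B, PTPRN2 and GPC5 had 7 reads or fewer over both libraries and were not called.

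Genes for transcription, chromatin, replication and splicing divided between the gonads. Of 11 with at least 10 reads, 5 were at least 4-fold higher in the ovary, 3 were at least 4-fold higher in the testis and 3 were neither. The list's median log2 ratio was 1.09, and -0.69 when scaled to the reads on listed genes. SMU1, a splicing factor, had 2999 reads in the ovary and none in the testis, at least 614-fold higher. POLR2B, a large subunit of RNA polymerase II, had 873 and 20 reads, 26.8-fold higher (17.2 to 44.1). GLYR1, a nucleosome-binding protein, had 76 and 2 reads, 23.3-fold higher (6.24 to 196), and FOXN2, a forkhead transcription factor, had 71 reads in the ovary and none in the testis, at least 14.5-fold higher. PIAS1, given above, is the remaining gene of the list that was called for the ovary.

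The genes of this list that were higher in the testis were read in both gonads. CHD4 and CHD5 encode chromatin-remodelling helicases, and CHD5 is known in mice for its part in the chromatin of maturing sperm. CHD5 had 309 reads in the ovary and 1063 in the testis, 5.60-fold lower in the ovary (4.93 to 6.38). CHD4 had 90 and 284 reads, 5.14-fold lower (4.04 to 6.59). BTF3, a subunit of a ribosome-associated complex first described as a transcription factor, was 4.07-fold lower (2.23 to 7.79). POLD2, an accessory subunit of DNA polymerase delta, held the most testis reads of any listed gene, 15.3% of them. Its 589 ovary and 1379 testis reads made it 3.81-fold lower in the ovary (3.46 to 4.21), so that the interval of the gene crossed the 4-fold limit. When scaled by the median ratio, CHD4, CHD5 and BTF3 were no longer 4-fold apart.

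Genes read at similar levels were few. MEF2D, a transcription factor, had 45 reads in the ovary and 21 in the testis, and its interval of 0.768 to 2.33 held 1. AEBP1 had 76 and 22 reads, 2.12-fold higher in the ovary (1.31 to 3.58). On the scale of reads on listed genes both were lower in the ovary. The only gene of gonad and sex determination with at least 10 reads was DMRT1, a Z-linked gene needed for testis development in chicken. DMRT1 had 15 reads in the ovary and none in the testis, at least 3.07-fold higher. This value is under the limit and falls to 0.899 when scaled to the reads on listed genes. FEM1B had 2 and 6 reads. OSTF1, which belongs to none of the lists, had 3 ovary and 16 testis reads and was 8.68-fold lower in the ovary (2.49 to 46.5). ZMYND10, known for the assembly of ciliary dynein arms, had 16 ovary reads and no testis read, at least 3.28-fold higher.

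**Figure D3:**
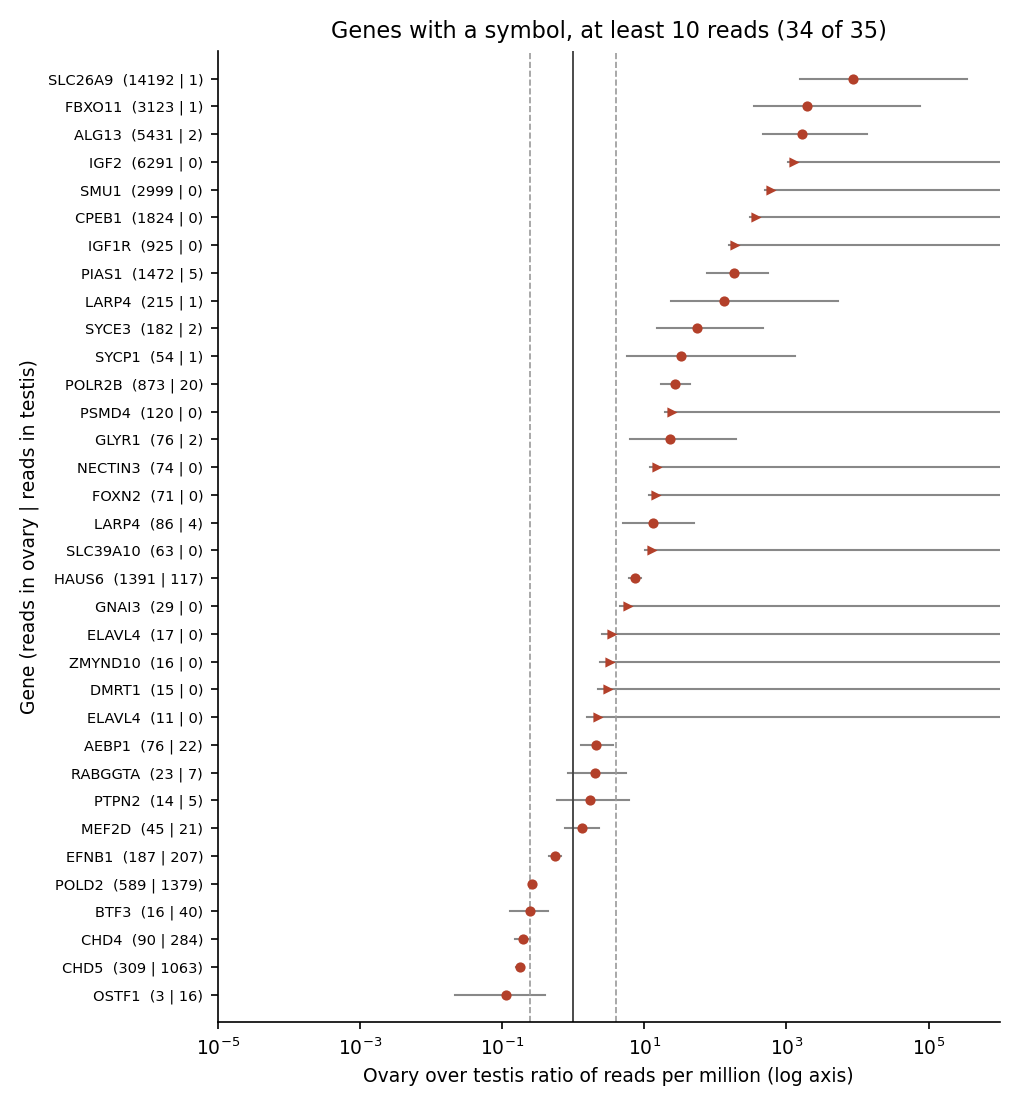
Ovary over testis ratio of RPM (x axis, log scale) of 34 of the 35 listed genes with a symbol and at least 10 reads, with the reads in ovary and testis beside each gene. Lines are exact 95% counting intervals, triangles are ratios with a count of 0 taken as 3 reads, and dashed lines mark 4-fold. Of the genes drawn, 20 lie to the right of the dashed lines and 4 to the left, OSTF1, CHD5, CHD4 and BTF3.

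Among LOC genes, LOC101808355 stood apart on the ovary side. It had 7519 reads in the ovary and 6 in the testis, 769.7-fold higher (353.5 to 2098), and it alone held 15.0% of the ovary reads on listed genes. The other LOC genes called for the ovary had far fewer reads. LOC101816890 had 233 ovary reads and none in the testis, at least 47.7-fold higher. LOC107603367, which the study describes as similar to a member of the endogenous retrovirus group K, had 240 and 19 reads, 7.76-fold higher (4.86 to 13.1). LOC101811308, LOC101806579, LOC107604314, LOC107604199 and LOC101817906 had 20 to 54 ovary reads and at most 5 testis reads.

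On the testis side the LOC genes were many and nearly silent in the ovary. LOC101810338 had 1 read in the ovary and 659 in the testis, 1073-fold lower in the ovary (192 to 42443), and its deposited FPKM of 36.3 was the highest of all genes in the testis, although POLD2 was the highest in reads per kilobase of the adjusted length. LOC101813524 had 2 and 1031 reads, 839-fold lower (232 to 6940). LOC101819595 had 1 and 380 reads, 618.7-fold lower (110 to 24501). Such differences came from a few ovary reads each, so that their intervals are wide towards larger folds. LOC101812416 had 1 and 287 reads, LOC101821172 had 2 and 301, LOC107603907 had 4 and 352, and LOC101809500 had 6 and 486, with folds of 131.9 to 467.3. LOC101815961 with 5 and 332 reads and LOC101812486 with 2 and 138 reads were 108 and 112 times lower in the ovary.

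Other LOC genes were at 0 in the ovary or read at low levels in both gonads. LOC101818158, LOC101818220 and LOC101805799 had no ovary read and 98, 97 and 94 testis reads, at least 51.0-fold lower in the ovary. LOC101813248 was annotated by the study as similar to hydin, which is known as a protein of the ciliary axoneme. It had 12 reads in the ovary and 347 in the testis, 47.1-fold lower in the ovary (26.6 to 92.0). LOC107604299, described as similar to another retrovirus group K member, had 3 and 36 reads, 19.5-fold lower (6.17 to 99.2). LOC107604464, also described as retrovirus-like, had 26 and 25 reads with an interval that held 1. Scaled to the reads on listed genes, LOC107603367 was 2.27-fold higher in the ovary, under the limit, and the ratio of LOC107604464 was 0.187, past it on the testis side. LOC101813323, similar to the zinc finger gene ZNF239, was read well in both, with 435 and 155 reads and 1.72-fold higher in the ovary (1.43 to 2.08), a direction that turns when scaled to the reads on listed genes (ratio 0.505). LOC107604624 had 58 and 116 reads and was 3.26-fold lower in the ovary (2.36 to 4.54).

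**Figure D4:**
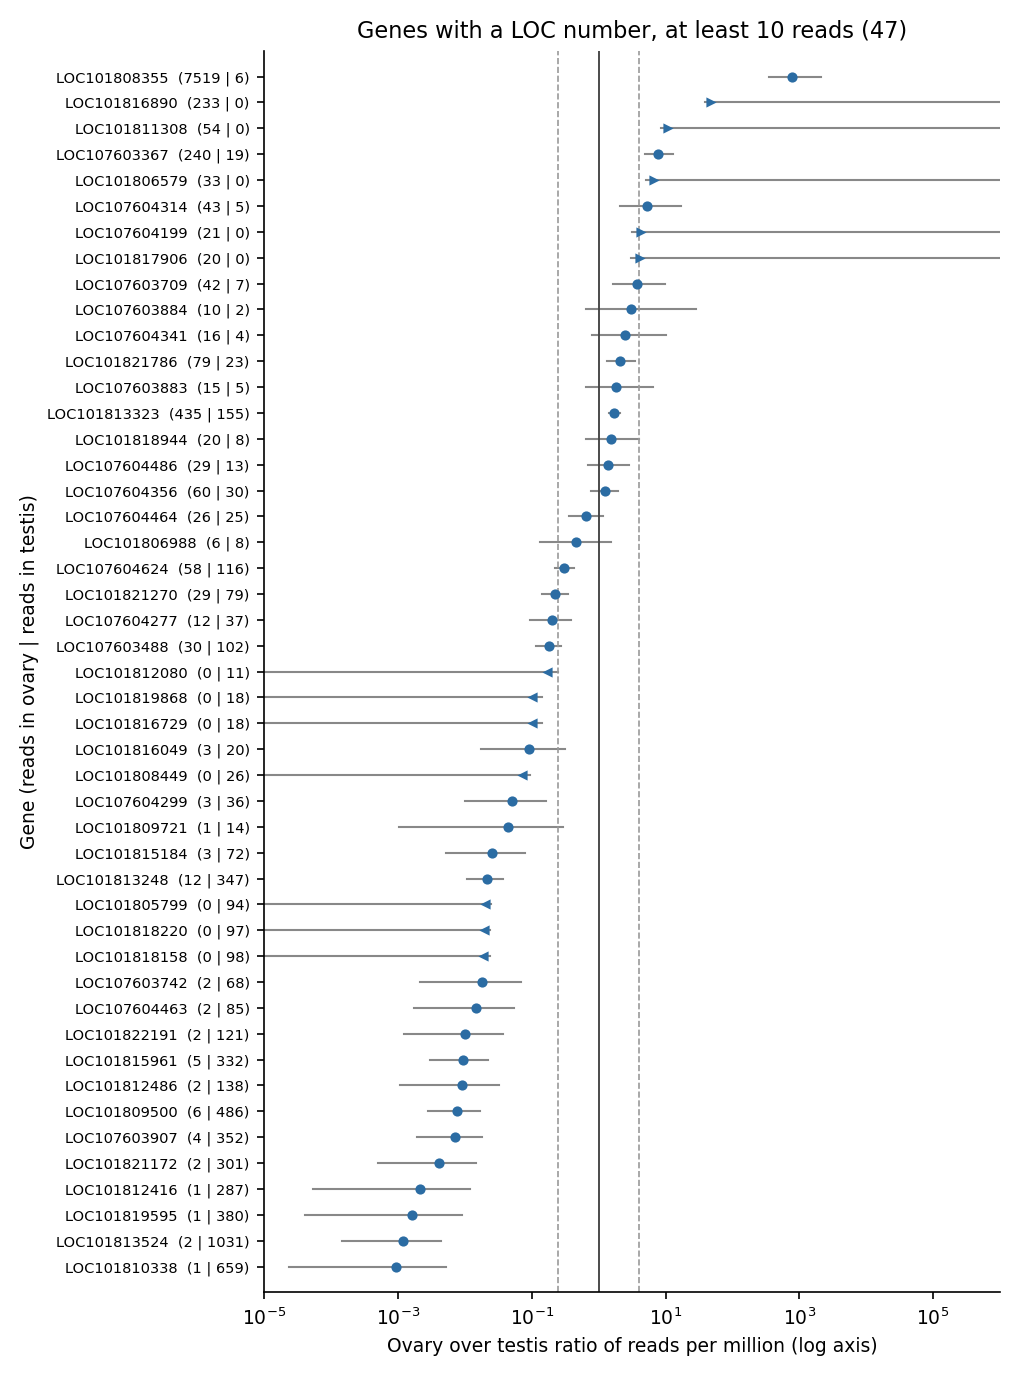
Ovary over testis ratio of RPM (x axis, log scale) of the 47 listed LOC genes with at least 10 reads, drawn as in the plot of genes with a symbol. Of these, 8 lie at least 4-fold to the ovary side, led by LOC101808355 with 7519 ovary and 6 testis reads, and 27 lie at least 4-fold to the testis side, down to LOC101810338 with 1 and 659 reads.

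Reads were also concentrated differently. In the ovary, 3 genes held 50% of the reads on listed genes and 10 genes held 90%. In the testis, 5 genes were needed for 50% and 22 for 90%. The leading genes of the ovary were SLC26A9, LOC101808355, IGF2, ALG13 and FBXO11, which had between none and 6 testis reads each. The genes with most testis reads were POLD2, CHD5, LOC101813524, LOC101810338 and LOC101809500. No gene was among the 5 leading genes of both gonads. Since 5 genes are a small part of the 116 listed genes, this lack of overlap is a description only.

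Genes annotated from the same flycatcher sequence did not always share a gonad. The identifier of each gene names the collared flycatcher sequence that holds its A-chromosomal counterpart. Over all 82 listed genes with at least 10 reads, 35.4% were called for the ovary and 37.8% for the testis. On the sequence of CPEB1, all 4 genes with at least 10 reads were called for the ovary, namely LOC101808355, CPEB1, IGF1R and PIAS1. On the same sequence lies SEMA7A, an axon guidance protein of the signalling list that is outside the study's list. SEMA7A was 15.2-fold lower in the ovary (4.69 to 78.1), with a lowest pair of 3 to 28 reads. The 3 genes on the sequence of SLC26A9 were also all called for the ovary, and the 3 on the sequence of LOC101813248 were all called for the testis. The sequence of SMU1 held 7 such genes, of which 1 was called for the ovary, SMU1 itself, 5 for the testis and DMRT1 for neither. That of LOC101816890 held 6 (1 for the ovary, 2 for the testis, 3 for neither) and that of CHD4 held 5 (2, 1 and 2). Those of FBXO11 and LOC101822191 held 4 each, with 2 called for each gonad. Those of POLD2 (1, 0 and 2) and LOC101809500 (0, 2 and 1) held 3 each. Sequences with fewer than 3 such genes were not compared. Of the 54 genes from sequences assigned to flycatcher chromosomes, 22 were called for the ovary and 17 for the testis, and of the 28 from unplaced sequences 7 were called for the ovary and 14 for the testis. Of the 28, 22 are LOC genes, against 25 of the 54, so placement and naming moved together and their parts were not tested.

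Genes outside the study's list were mostly low in FPKM. Of these 151 genes, 8 in the ovary and 13 in the testis had an FPKM of at least 0.1. FPKM is multiplied by the proportion of the gene on the GRC, and the study's list required a minimum of that proportion. A low FPKM outside the list therefore follows in part from the listing and need not mean few reads. PCDH7, with at least 94 testis reads, had 0.0389 FPKM in the testis. In this set 54 were above 0 in the ovary alone, 51 in the testis alone and 46 in both. Of the 114 genes above 0 in both gonads, listed or not, the FPKM ratio was at least 4 for 22 (19.3%), and at or below 1 to 4 for 48 (42.1%). For the 46 genes outside the list, the counts were 5 and 20. On this measure, genes with a symbol outside the list did not lean to the ovary. Of the 32 above 0 in both gonads, 5 were at least 4-fold higher in the ovary and 12 at least 4-fold higher in the testis. The measure sets no minimum of reads, unlike the calls above. It also leaves out the 37 such genes above 0 in the ovary alone and the 32 in the testis alone. On the same measure the 25 listed genes with a symbol gave 12 and 6. Over all 57 with a symbol, listed or not, the counts were 17 and 18. The intervals given for genes outside the list treat the lowest whole-number pair as the reads, and the true reads are this pair or a multiple of it.

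Some genes outside the list shared a symbol with a listed gene and its direction. A second identifier of CPEB1 was listed at 0.196 FPKM in the ovary and at 0 in the testis, and a second one of SLC26A9 at 0.556 and 0. A second identifier of CHD5 was 4.27-fold lower in the ovary with a lowest pair of 8 to 21 reads. MSH6, a mismatch repair gene, was at 0.269 FPKM in the ovary and listed at 0 in the testis. AGGF1, an angiogenic factor, was read in both, with a lowest pair of 344 to 121, 1.75-fold higher in the ovary (1.42 to 2.17). In FPKM all of these were far below the leading listed genes. This FPKM is multiplied by the proportion of the gene on the GRC, so it does not rank genes by reads. AGGF1 had at least 344 ovary reads at 0.348 FPKM, while the listed GLYR1 identifier had 76 at 0.462 FPKM.

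The highest genes outside the list in the testis were LOC genes. LOC101821108 had 0.0345 FPKM in the ovary and 3.24 in the testis, 93.8-fold lower in the ovary (39.7 to 291.0). LOC107604319 was 5.95-fold lower (4.73 to 7.54), with a lowest pair of 95 to 347 reads. A second identifier of LOC101808449 was listed at 0 in the ovary and at 1.21 FPKM in the testis. Genes with a symbol were found here as well. PCDH7, a cell adhesion protein of the protocadherin family, had a lowest pair of 1 to 94 reads and was 153-fold lower in the ovary (26.8 to 6109). GATAD2A, a subunit of the same NuRD complex that holds CHD4, was 6.09-fold lower (4.44 to 8.50), with a lowest pair of 50 to 187. THRSP was listed at 0 in the ovary and at 0.886 FPKM in the testis.

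The same contrast in the thrush nightingale, *L. luscinia*, came from the ovary of 1 female and the testis of 1 male and shares no library with that of *L. megarhynchos*. At least 10 reads over the 2 gonads of each species were found for 40 genes. The direction was the same in 29 and opposite in 11. Of the 14 genes called for the ovary in *L. megarhynchos*, 10 were called for the ovary in *L. luscinia* and 0 for the testis, and of the 15 called for the testis, 11 were called for the testis and 0 for the ovary. Across the 40 genes, the log2 ratios of the species had a Pearson's r of 0.89 and a Spearman's rho of 0.85, given as a description since the genes of a pair of libraries share their depth and scaling.

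Several of the leading genes had large differences in both species. SLC26A9 had 1763 reads in the ovary and 12 in the testis of *L. luscinia*, against 14192 and 1 in *L. megarhynchos*. CPEB1 had 594 ovary reads and no testis read in *L. luscinia*, and IGF2 had 350 and none. IGF1R, without a testis read in *L. megarhynchos*, had 462 and 20 reads in *L. luscinia*, 31.5-fold higher in the ovary (20.2 to 52.1). LOC101813524 had 16 and 8034 reads there, and LOC101813248 had 180 and 4281. Other leading genes of *L. megarhynchos* could not be compared. LOC101808355 of the ovary and POLD2, CHD5 and LOC101810338 of the testis were at 0 FPKM in both *L. luscinia* libraries. LOC101810338 had 0 reads in each of these libraries. For LOC101808355, POLD2 and CHD5 no *L. luscinia* read number was recovered. As FPKM is multiplied by the proportion on the GRC, their 0 FPKM cannot tell missing RNA from a gene missing from that GRC assembly. Of the 11 genes not called in *L. megarhynchos*, 3 were called for the ovary and 2 for the testis in *L. luscinia*. LOC101812486, with 2 and 138 reads in *L. megarhynchos*, had 9 and 11 reads in *L. luscinia*, where its interval of 0.409 to 2.96 held 1. EFNB1, with 187 and 207 reads in *L. megarhynchos*, had 21 and 0 reads in *L. luscinia*. The first LARP4 identifier had 50 and 100 reads in *L. luscinia*, a ratio of 0.682. Scaled to the reads on listed genes, its ratio was 1.22, with an interval that held 1 (0.852 to 1.73).

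**Figure D5:**
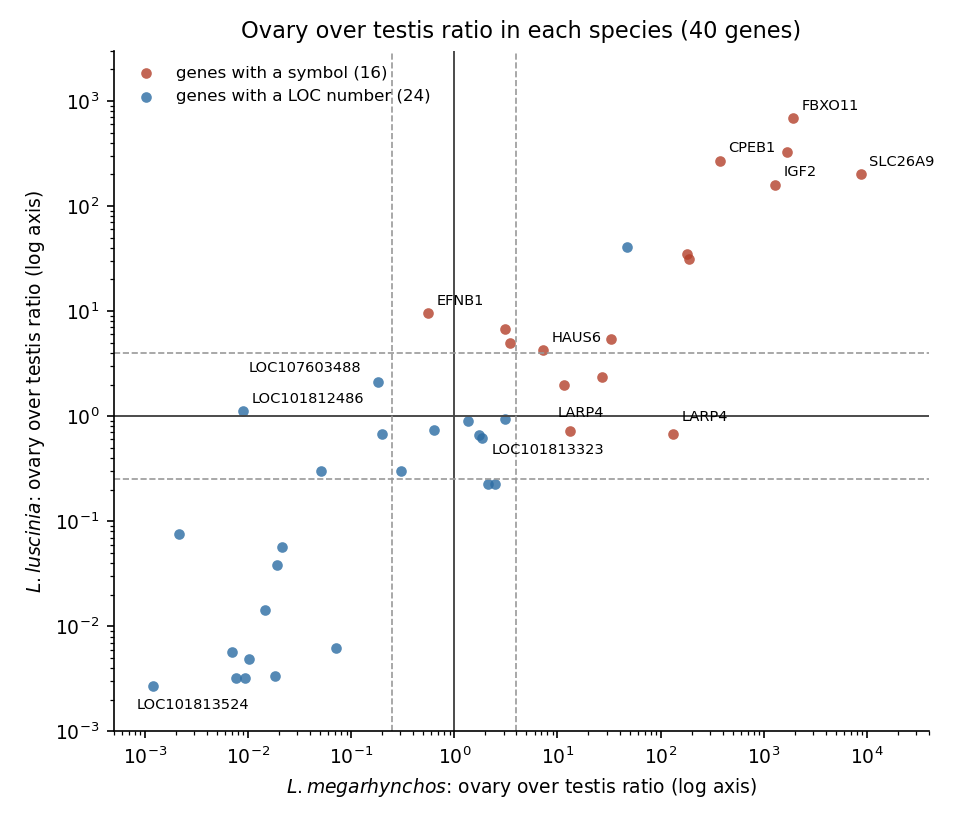
Ovary over testis ratio of RPM in *L. megarhynchos* (x axis) and in *L. luscinia* (y axis), both on log axes, for the 40 genes with at least 10 reads in each species. Solid lines mark a ratio of 1 and dashed lines 4-fold, and counts of 0 are taken as 3 reads. In the upper right or lower left lie 29 genes, and EFNB1, LARP4, LOC107603488 and LOC101813323 are among those in the other quadrants. On reads scaled to listed genes LARP4 would lie in the upper right, with *L. luscinia* intervals that hold 1.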

How the data were processed

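The authors used Trimmomatic 0.39 for trimming and STAR 2.7.9a for alignment against a reference that combined the A chromosomes with the GRC assembly, and counted only uniquely mapped reads in exons annotated from flycatcher coding sequences. How reads were counted and whether strand was used are not given in the sources used here. In the deposited table, FPKM is given with decimal commas for 799 identifiers (769 symbols), 1 column per library. The authors' FPKM of the 192 listed genes equals whole reads divided by coding length and library reads and multiplied by the proportion of the gene on the GRC. From the lengths and proportions in the study's supplement, 100% of values gave whole reads within 0.01, and so did the scaling of each library. The recovery was tested on simulated data, where 100% of the read numbers of 89 ovary and 83 testis genes were returned. These data were built with the same formula, so they check the procedure and cannot check the formula. For other genes above 0 in both libraries, the lowest whole-number pair with the observed ratio was taken. The same procedure gave the pair of the recovered reads, in lowest terms, for 68 of 68 listed genes. A FPKM ratio between libraries is on the linear scale with no pseudocount.

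Gene members, lists and the rule for named genes were chosen with earlier results of these data known. The rule takes every listed gene with a symbol and at least 10 reads, LOC genes with the most reads or the clearest differences, the highest genes outside the list, and members of the lists. The values of 1 gene are not reported here. Of the lists, RNA binding has 4 of 12 symbols in the table, meiosis and spindle 5 of 13, and gonad and sex determination 2 of 6, and the other 4 lists have all their symbols there. Alternatives changed the threshold, the scaling, the limit for a count of 0, the minimum of reads and the pseudocount. No per-sample column was left unused. Python 3.11.15, numpy 2.4.6, pandas 2.3.3, scipy 1.17.1 and matplotlib 3.10.9 were used.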

Additional observations from a re-analysis of the deposited data

Results flagged for a closer look

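In 4 genes the ratio between ovary and testis pointed opposite ways in the 2 species, with counting intervals that excluded 1 in both, on reads scaled to the library. Each species has 1 library per gonad, so the difference between species was not tested. LARP4 was 132-fold higher in the ovary of *L. megarhynchos* (215 and 1 reads), and its ratio was 0.682 in *L. luscinia* (50 and 100 reads). The ratio of EFNB1 was 0.555 in *L. megarhynchos* (187 and 207 reads), and EFNB1 was at least 9.55-fold higher in the ovary of *L. luscinia* (21 reads and none). The ratio of LOC107603488 was 0.181 in *L. megarhynchos* (30 and 102 reads) and 2.11 in *L. luscinia* (31 and 20 reads). The ratio of LOC101813323 was 1.72 in *L. megarhynchos* (435 and 155 reads) and 0.657 in *L. luscinia* (53 and 110 reads). Scaled to reads on listed genes in both species, EFNB1 (0.162 and at least 17.1) and LOC107603488 (0.0529 and 3.79) still pointed opposite ways. On that scale the ratios were 38.7 and 1.22 for LARP4 and 0.505 and 1.18 for LOC101813323. Both intervals in *L. luscinia* then held 1 (0.852 to 1.73 and 0.832 to 1.65), so no direction is given there. On reads scaled to the library, the interval of the second LARP4 identifier in *L. luscinia* held 1 (0.401 to 1.24). Scaled by the median ratio, the interval of EFNB1 in *L. megarhynchos* held 1 (0.759 to 1.14). This scaling comparison was chosen after seeing the data.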

How the results depend on the processing

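No paired analysis was possible because each group has 1 library. The numbers of genes above 0 moved most with the threshold. In the ovary alone, the testis alone and both, they were 31, 36 and 27 at an FPKM of at least 0.1, and 16, 20 and 5 at an FPKM of at least 1. Among listed genes they were 30, 18 and 68 above 0, 36, 26 and 41 at 3 reads or more, and 37, 24 and 20 at 10 reads or more. The number of genes at least 4-fold higher in the ovary was 18 when scaled to reads on listed genes and 12 on FPKM with a pseudocount of 1. The number at least 4-fold higher in the testis was 54 with a pseudocount of 0.01 and 10 with a pseudocount of 1. The median log2 ratio of genes with a symbol was 1.92 when scaled to reads on listed genes, 4.43 when scaled by the median ratio, 4.54 at 30 reads or more and 1.13 with no minimum of reads, and 0.036, 0.0036 and 0.000365 on FPKM with pseudocounts of 0.01, 0.1 and 1. That of LOC genes was -4.35, -1.83, -4.79 and -1.70 under the same 4 settings, and -0.71, -0.11 and -0.011 with the pseudocounts. The FPKM medians of genes with a symbol, over 151 genes listed or not, were at most 1.03-fold, so their sign shows no lean. The medians of both sets kept their sign. That over all 82 genes did not: it was 0.78, -0.99 when scaled to reads on listed genes and 1.53 by the median ratio, and uncalled genes such as AEBP1 (2.12, then 0.621) and LOC101813323 (1.72, then 0.505) turned with it. Genes above 0 in the ovary alone outnumbered those in the testis alone above 0, but not at an FPKM of 0.1 or 1. The 5 genes with most reads held 73.0% of the ovary reads and 51.3% of the testis reads on listed genes. As FPKM of listed genes, the 5 highest held 77.2% and 56.4%, as FPKM of all genes 76.5% and 52.8%, and per kb of adjusted coding length 74.5% and 52.7%. The number of genes with the same direction in both species stayed within 1.5 times of 29. For single genes, the scaling by the median ratio was added after seeing the data. It moved the ratio of 19 of 82 genes outside its counting interval, and scaling to reads on listed genes did so for 50 of 82. A gene with 10 ovary reads and no testis read cannot pass 4-fold here, so the depth limits calls for low genes. The limit is uneven, because LOC101812080 was called for the testis with 11 testis reads and no ovary read. With a count of 0 taken as 1 read in place of 3, 33 genes were called for the ovary and 31 for the testis.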
